A study of Mus musculus with 36 samples.

Results

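The immediate early genes described here are 10 of the 55487 genes of the count matrix: Fos, Fosb, Junb, Egr1, Egr2, Egr3, Ier2, Nr4a1, Arc and Dusp1. They were taken by symbol, and each symbol matched 1 gene. They were followed through 36 RNA-seq libraries of mouse unmyelinated optic nerve (UON), myelinated optic nerve (MON) and retina. Immediate early genes are transcribed within minutes of a stimulus without new protein synthesis, from transcription factors already present in the cell, and their mRNAs are short-lived. In nervous tissue they are used as marks of recent neuronal activity, and glia, vascular cells and immune cells also switch them on after injury.

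All mice were C57BL/6, and by the study's methods 2 to 4 months old. Naïve mice had no procedure on either eye. In the crush groups 1 optic nerve was crushed briefly with self-closing forceps and tissue was taken 3 D (days) or 2 W (weeks) later. In the glaucoma groups 1 eye received microbeads into the anterior chamber to raise eye pressure, and tissue was taken at 3 D, 2 W or 6 W. The naïve mice had no sham procedure, so the effects of crush or beads and of the surgery around them cannot be told apart. The labels name no transgene or deletion. Each of the 18 groups (3 tissues, 6 conditions) held 2 libraries. Each library was a pool of RNA from 2 mice of the same sex, female in one and male in the other. Thus every group has n = 2 pools, and a difference between pools cannot be told apart from a difference between sexes. The 3 tissues came from the same mice. The naïve libraries served as control for crush and for glaucoma, so comparisons with naïve share them.

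Libraries held between 16.2 M and 78.1 M (mega) estimated counts, and the naïve MON pools differed most in depth, with 78.1 M counts in the female and 17.8 M counts in the male pool. Markers of the labelled tissues were present: the sum of 8 photoreceptor genes was 55900 to 70500 counts per M counts (CPM) in retina and 8.93 to 379 CPM in the nerve libraries, and the sum of 7 oligodendrocyte genes was 123000 to 165000 CPM in naïve MON and 22000 to 28800 CPM in naïve UON. Surface epithelium genes (5 genes) summed to 1860 and 2240 CPM in 2 MON glaucoma libraries, the male pool at 2 W and the female pool at 6 W, and to at most 128 CPM in the other libraries. Results that rest on those 2 libraries are given with and without them. In bulk tissue, fewer cells of a type and less RNA per cell cannot be told apart.

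The members lie apart in the genome, and Egr1 is not placed here. By the authors' gene tables on GRCm38, Fos spans chr12:85473890-85477273 (plus strand), Fosb chr7:19302696-19310051 (minus), Junb chr8:84976910-84978718 (minus), Ier2 chr8:84661331-84662854 (minus), Egr2 chr10:67535475-67542188 (plus) and Egr3 chr14:70077203-70082614 (plus). Nr4a1 spans chr15:101254269-101274795 (plus), Arc chr15:74669083-74672570 (minus) and Dusp1 chr17:26505590-26562128 (minus). The Dusp1 span runs far beyond the start site at 26508472 used for its promoter window, so that window lies inside the span. Junb and Ier2 have a single exon in their first annotated transcript. The median span of the 10 genes was 5287 bases, against 17403 bases over 21951 protein-coding genes.

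Promoter windows from RefSeq (GRCm38.p6), the 250 bases before each start site, were matched for 6 members: Fos, Fosb, Junb, Egr2, Nr4a1 and Dusp1. Egr1, Egr3, Ier2 and Arc were not matched. The windows of Fos, Egr2 and Dusp1 are shown because they hold an element to which early-response factors are known to bind, and that of Junb because it was among the members that moved most after crush and holds none of the motifs searched. Capitals mark matches to the serum response element (the CArG box), bound by serum response factor, and to TGACGTNN (of which TGACGTCA is the full cAMP response element), bound by CREB. Each was searched on both strands, together with TGANTCA (bound by Fos and Jun dimers) and GCGTGGGCG (bound by Egr proteins).
Fos, chr12:85473640-85473889, plus strand: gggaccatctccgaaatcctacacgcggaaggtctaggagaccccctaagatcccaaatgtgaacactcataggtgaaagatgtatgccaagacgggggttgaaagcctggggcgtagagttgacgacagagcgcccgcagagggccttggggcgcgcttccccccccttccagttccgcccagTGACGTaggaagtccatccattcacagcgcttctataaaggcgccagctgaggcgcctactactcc
Egr2, chr10:67537619-67537868, plus strand: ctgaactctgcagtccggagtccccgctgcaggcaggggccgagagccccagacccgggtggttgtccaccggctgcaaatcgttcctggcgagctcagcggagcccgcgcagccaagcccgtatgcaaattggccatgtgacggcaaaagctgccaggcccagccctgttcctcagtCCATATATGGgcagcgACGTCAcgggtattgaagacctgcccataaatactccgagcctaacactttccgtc
Dusp1, chr17:26508473-26508722, minus strand: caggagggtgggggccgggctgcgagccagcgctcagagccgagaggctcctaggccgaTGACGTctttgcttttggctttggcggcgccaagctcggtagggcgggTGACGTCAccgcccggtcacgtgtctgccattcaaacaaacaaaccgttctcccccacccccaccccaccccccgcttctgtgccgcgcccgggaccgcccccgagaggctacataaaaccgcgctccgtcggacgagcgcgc
Junb, chr8:84978749-84978998, minus strand: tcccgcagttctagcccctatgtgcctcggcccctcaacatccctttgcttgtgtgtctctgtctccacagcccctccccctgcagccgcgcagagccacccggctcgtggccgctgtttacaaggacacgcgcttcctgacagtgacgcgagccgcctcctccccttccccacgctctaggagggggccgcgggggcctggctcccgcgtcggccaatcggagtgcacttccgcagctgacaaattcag

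The Egr2 window held CCATATATGG 72 to 63 bases before the start and CGACGTCA, a match read from the minus strand, 58 to 51 bases before it. RefSeq lists several Egr2 starts. A window of another start held a further CArG box, and that of the start at 67535499 held no match. Fos held TGACGTAG 66 to 59 bases before the start. Dusp1 held the full TGACGTCA at 143 to 136 and TGACGTCT at 191 to 184 bases before the start. Of 32841 promoter windows of the same length, 1.47% held the CArG box, 1.55% TGACGTCA, 6.39% TGACGTNN, 6.75% TGANTCA and 0.536% GCGTGGGCG. No member window held TGANTCA or GCGTGGGCG, and Fosb, Junb and Nr4a1 held no match. A match is a run of letters and not a measured site. AU-rich pentamers (ATTTA in DNA letters), which shorten the life of an mRNA, were counted in the annotated 3′ UTRs on GRCm38. Their density was 5.77 per kilobase in Dusp1, 5.49 in Nr4a1, 4.89 in Fos and 4.1 in Junb, against a median of 1.35 over 19968 genes, and Ier2 and Arc had none. Egr3 at 2.64, Egr2 at 2.49 and Egr1 at 1.64 lay nearer the median, and Fosb at 0.434 below it.

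Levels between genes are compared on the deposited FPKM, which are per transcript length, in the naïve tissues (mean ± SD, n = 2). Dusp1, a nuclear phosphatase that switches off MAP kinases, was the most abundant member in UON at 139 FPKM ± 17.8 and in MON at 36.6 FPKM ± 13.1. In retina Dusp1 at 21.7 FPKM ± 2.11 and Ier2, a short nuclear protein gene, at 21.5 FPKM ± 1.11 were within their spread of each other. Fos, which pairs with Jun proteins to form the AP-1 factor, stood at 15.9 FPKM ± 6.44 in MON and 15.3 ± 5.69 in UON, and retina at 12.9 ± 1.6 overlapped with both. Fosb, Egr3 and, outside UON, Egr2 were at most 0.234 FPKM in every naïve library. The order below Dusp1 in UON was Junb, Fos and Ier2, neighbours that did not differ beyond their spread, then Egr1, Arc and Nr4a1, and then Egr2.

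**Figure D1:**
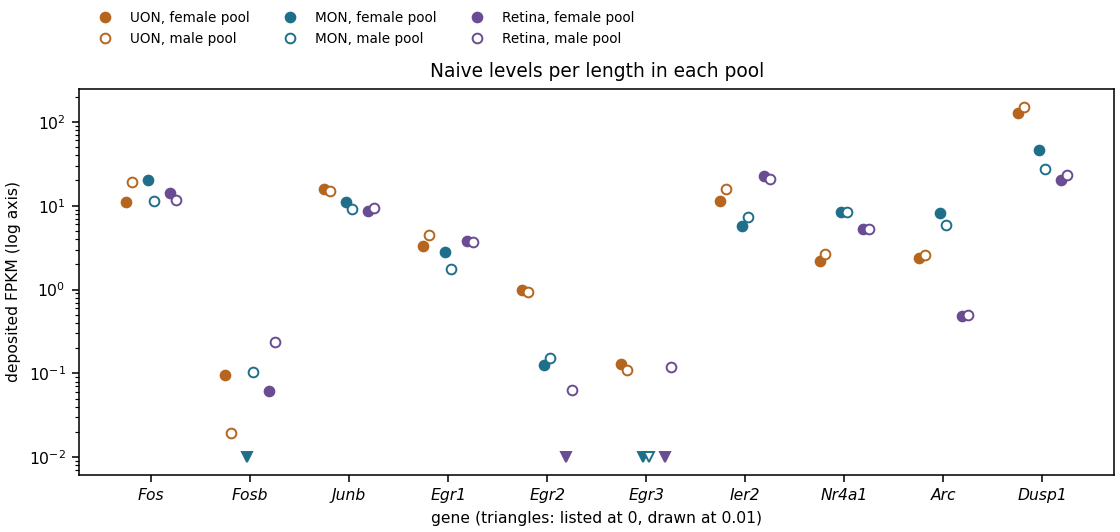
Deposited FPKM of the 10 members in the 6 naïve libraries, on a log axis. Filled symbols are female pools, open symbols male pools, and triangles are values listed at 0. Dusp1 lies at 126 and 152 FPKM in the UON pools, and Arc runs from below 1 FPKM in retina to 5.86 and 8.28 FPKM in MON.

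The first question was which members differ between the tissues before any injury. Arc, Nr4a1 and Dusp1 separated the 2 parts of the nerve, and Arc and Dusp1 separated the nerve from the retina. Arc, known for its part in synaptic plasticity of neurons, was at 35.5 CPM in the female and 22.1 CPM in the male pool of MON. In UON it was at 9.16 and 10.4 CPM, and in retina at 1.44 and 1.48 CPM. The tissues did not overlap, with MON highest and retina lowest. The log2 fold change was -1.58 ± 0.34 (SE) for UON over MON (adjusted p = 0.0306, edgeR quasi-likelihood test with Benjamini-Hochberg adjustment over all genes), 2.71 ± 0.36 for UON over retina (adjusted p = 0.0011) and 4.28 ± 0.38 for MON over retina (adjusted p = 0.000204).

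Nr4a1, an orphan nuclear receptor, was at 28.2 and 25.6 CPM in the female and male pools of naïve MON. It was at 6.56 and 8.33 CPM in UON and at 12.8 and 12.2 CPM in retina. MON lay above both other tissues without overlap, at a log2 fold change of -1.89 ± 0.3 for UON over MON (adjusted p = 0.00954, edgeR) and 1.11 ± 0.29 for MON over retina (adjusted p = 0.0251, edgeR). Dusp1 ran the other way along the nerve. Its values were 304 and 393 CPM in UON, 125 and 64.7 CPM in MON and 38.5 and 42.2 CPM in retina, again without overlap. Dusp1 was higher in UON than in MON by 1.87 ± 0.33 (adjusted p = 0.0152) and than in retina by 3.08 ± 0.34 (adjusted p = 0.000486), and higher in MON than in retina by 1.2 ± 0.32 (adjusted p = 0.0286), all log2 values from edgeR.

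Egr2, a zinc finger factor known for the myelin program of Schwann cells and for hindbrain patterning, had 165 and 120 counts (3.7 and 2.87 CPM) in naïve UON. It had 34 and 10 counts (0.541 and 0.601 CPM) in MON and 0 and 8 counts in retina. UON exceeded retina by a log2 fold change of 5.52 ± 1.51 (adjusted p = 0.0271, edgeR), a size that rests on the 8 counts of the male retina pool. Junb, an AP-1 subunit, was 36.3 and 35.5 CPM in UON and 15.2 and 16.1 CPM in retina, a log2 difference of 1.15 ± 0.25 (adjusted p = 0.011, edgeR). Ier2 was lower in MON, at 12.3 and 13.8 CPM, than in retina, at 33 and 29.9 CPM (log2 fold change -1.28 ± 0.27, adjusted p = 0.0107, edgeR).

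In counts, 3 of 10 members were called between UON and MON (9.63% of 23685 genes tested), 4 between UON and retina (31.7% of genes) and 4 between MON and retina (27.6%). With DESeq2, 12 of 30 member tests were called, against 29.7% of all gene tests. The members' shares between nerve and retina are near those of all genes. Of 36 other immediate early genes, 35 were tested. UON exceeded MON in 6 of them and lay below in 2, with a median log2 fold change of 0.72 against -0.06 over all genes. The largest differences were Rgs2 (2.92), a brake on G protein signals, Ccn2 (1.96) and Klf10 (1.9), with Gadd45b (-1.86) and Gadd45g (-1.24), both of the DNA damage and growth arrest family, on the MON side. Among 21 upstream factors and brakes, 1 differed between UON and MON, Nab2, a corepressor of Egr1 and itself an Egr1 target, which was higher in UON (1.63). Several naïve calls rest on 1 library, where the lone pool left in a group is taken to vary like the others. Arc between UON and MON was lost without the female pool of UON (log2 -1.33) or of MON (-1.14). Against retina, Egr2 in UON (4.09), Junb in UON (1), Dusp1 in MON (0.98), Ier2 in MON (-1.02) and Nr4a1 in MON (1.19) were lost without the female retina pool. Nr4a1 was lost also without the male retina pool (1.02) or the female MON pool (0.98), Dusp1 without the female MON pool (0.57) and Junb without the male UON pool (1.12). Dusp1 and Nr4a1 between UON and MON, and Arc and Dusp1 between UON and retina, held without any 1 library.

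The cell types that the tissues hold moved with these differences. Fibroblast markers (5 genes) summed to 2430 to 2720 CPM in naïve UON, 307 to 536 in MON and 3.65 to 3.74 in retina, with 4 of 5 called between UON and MON, and all 7 oligodendrocyte markers were called the other way. Their part in the differences was not tested.

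The next question was what crush does to these genes, and the members called by edgeR were all in MON. The Egr and AP-1 genes Egr1, Egr2 and Junb, and Ier2, rose in MON at 3 D and at 2 W. Egr1, a zinc finger factor induced by growth factors and activity, was at 17.5 and 9.74 CPM in the female and male pools of naïve MON. It was at 69.5 and 70.2 CPM 3 D after crush and at 83.5 and 79.5 CPM at 2 W. Every crush pool lay above both naïve pools, with a log2 fold change of 2.48 ± 0.31 at 3 D (adjusted p = 0.0114, edgeR) and 2.65 ± 0.31 at 2 W (adjusted p = 0.0153, edgeR).

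Egr2 was at 0.541 and 0.601 CPM in naïve MON, or 34 and 10 counts. It reached 4.32 and 9.67 CPM at 3 D and 21.9 and 13.6 CPM at 2 W, when the pools held 347 and 444 counts. The log2 fold change was 3.66 ± 0.59 at 3 D (adjusted p = 0.0204, edgeR) and 5.01 ± 0.61 at 2 W (adjusted p = 0.0166, edgeR). The 2 W pools lay above the 3 D pools, though the difference of 1.35 ± 0.53 between the times was not called (adjusted p = 0.354, edgeR).

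Junb was at 28.3 and 20.4 CPM in naïve MON, 83.6 and 133 CPM at 3 D and 132 and 92 CPM at 2 W. The crush pools did not overlap with naïve, and the log2 fold change was 2.25 ± 0.35 at 3 D (adjusted p = 0.0194, edgeR) and 2.24 ± 0.35 at 2 W (adjusted p = 0.0308, edgeR). Ier2 was at 12.3 and 13.8 CPM in naïve MON, 39.9 and 48.9 CPM at 3 D and 39.4 and 33 CPM at 2 W. Its log2 fold change was 1.85 ± 0.29 at 3 D (adjusted p = 0.0199, edgeR) and 1.51 ± 0.29 at 2 W (adjusted p = 0.0452, edgeR).

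The other members in MON did not pass. Fos was at 57.2 and 28.5 CPM in naïve MON, 93.7 and 94.5 CPM at 3 D and 118 and 93.9 CPM at 2 W, all crush pools above both naïve pools. The female naïve pool lay well above the male pool, and the log2 fold changes of 1.29 ± 0.3 and 1.39 ± 0.3 had adjusted p-values of 0.0612 and 0.0608 (edgeR). Egr3, which like Egr1 and Egr2 encodes a zinc finger factor, was listed at 0 counts in both naïve MON pools, 8 and 43 counts at 3 D and 4 and 24 counts at 2 W, where 1 read pair adds about 4 counts. Fosb had 0 to 8 counts in these 6 libraries and was below the filter.

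Arc and Nr4a1, the members that marked naïve MON, had other patterns. Nr4a1 was 28.2 and 25.6 CPM in naïve MON, 17.4 and 10.9 CPM at 3 D and 29.3 and 22.7 CPM at 2 W, below naïve in both pools at 3 D without passing the test (log2 fold change -0.88 ± 0.31, adjusted p = 0.169, edgeR). Arc was 35.5 and 22.1 CPM in naïve MON, 41.3 and 60.3 CPM at 3 D and 13.7 and 19.8 CPM at 2 W. The 2 W pools lay below the 3 D pools by a log2 value of -1.64 ± 0.36, with an adjusted p of 0.135 by edgeR and 0.00205 by DESeq2. Dusp1 stayed within 104 to 124 CPM in the 4 MON crush pools, inside the naïve range of 64.7 to 125 CPM.

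In counts, 4 of 9 members tested were called higher in MON at 3 D, against 3.61% of 19988 genes, and the same 4 at 2 W, against 2.13%. DESeq2 called 11 of 18 member tests at the 2 times (10.6% of its gene tests), adding Fos at both times and Egr3 at 3 D. Both pools lay above both naïve pools in 13 of 18 member tests, against 24.5% of gene tests. The median log2 fold change of the 9 members was 1.85 at 3 D and 1.51 at 2 W, the same when Egr3 is set at its lower bound, against 0 and 0.05 over all genes. All 8 calls rest on the 2 naïve MON libraries together and were lost without either. The log2 fold changes were 1.41 to 5.02 without the female pool and 1.62 to 5.01 without the male pool. Without the female pool at 2 W, the Ier2 call at 2 W was lost as well (log2 1.28). Each such fit has a lone pool in 1 group and takes its spread from the other groups. Calls kept or lost in it thus do not measure how firm a result is.

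Of the 36 other immediate early genes, 33 were tested in MON. At 3 D, 7 rose and none fell, and at 2 W, 4 rose and none fell, with a median log2 fold change of 0.6 and 0.67. At 3 D the largest were Ccn1, a secreted matrix protein gene induced through serum response factor and YAP (log2 3.44 ± 0.34), the kinase gene Plk2 (2.42 ± 0.39) and Ier3 (2.27 ± 0.41). At 2 W they were Atf3, a stress-induced factor that marks injured neurons (2.47 ± 0.29), Ccn1 (2.15 ± 0.32) and Klf10 (1.76 ± 0.35). Atf3 was 18 and 15.3 CPM in naïve MON, 44.8 and 49.1 CPM at 3 D and 108 and 72.9 CPM at 2 W. None of the 21 upstream factors and brakes (Srf, Creb1, MAP kinases, Nab and Sprouty genes among them) was called by edgeR at either time, with 5 and 3 higher and 2 and 1 lower at an unadjusted p under 0.05. Of 10 heat shock genes, which respond to tissue handling, 0 were called by edgeR, with 3 higher at 3 D and 2 lower at 2 W at an unadjusted p under 0.05. The share of all genes past that unadjusted cut in MON after crush is not given here. The unadjusted counts of both lists thus cannot be set against genes in general.

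Cell type markers moved in MON as well. The 7 neutrophil and monocyte markers summed to 2.07 to 2.77 CPM in naïve MON, 17.9 to 49.9 at 3 D and 9.38 to 20.4 at 2 W. Of these, Ccr2 was called at both times and the neutrophil gene Camp was at 0 throughout. The 4 border macrophage markers summed to 4.95 to 5.71 CPM in naïve MON, 40 to 91.8 at 3 D and 5.18 to 17.6 at 2 W. Among them Pf4 was called at 3 D (log2 5.1 ± 0.81). The 10 housekeeping genes summed to 4430 to 4720 CPM in naïve MON, 7390 to 8150 at 3 D and 5380 to 6210 at 2 W. The 7 oligodendrocyte markers summed to 72600 to 86800 CPM at 3 D and 46900 to 59800 at 2 W, below naïve, with 0 and 1 of 7 called. The part of these shifts in the members' values was not tested.

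**Figure D2:**
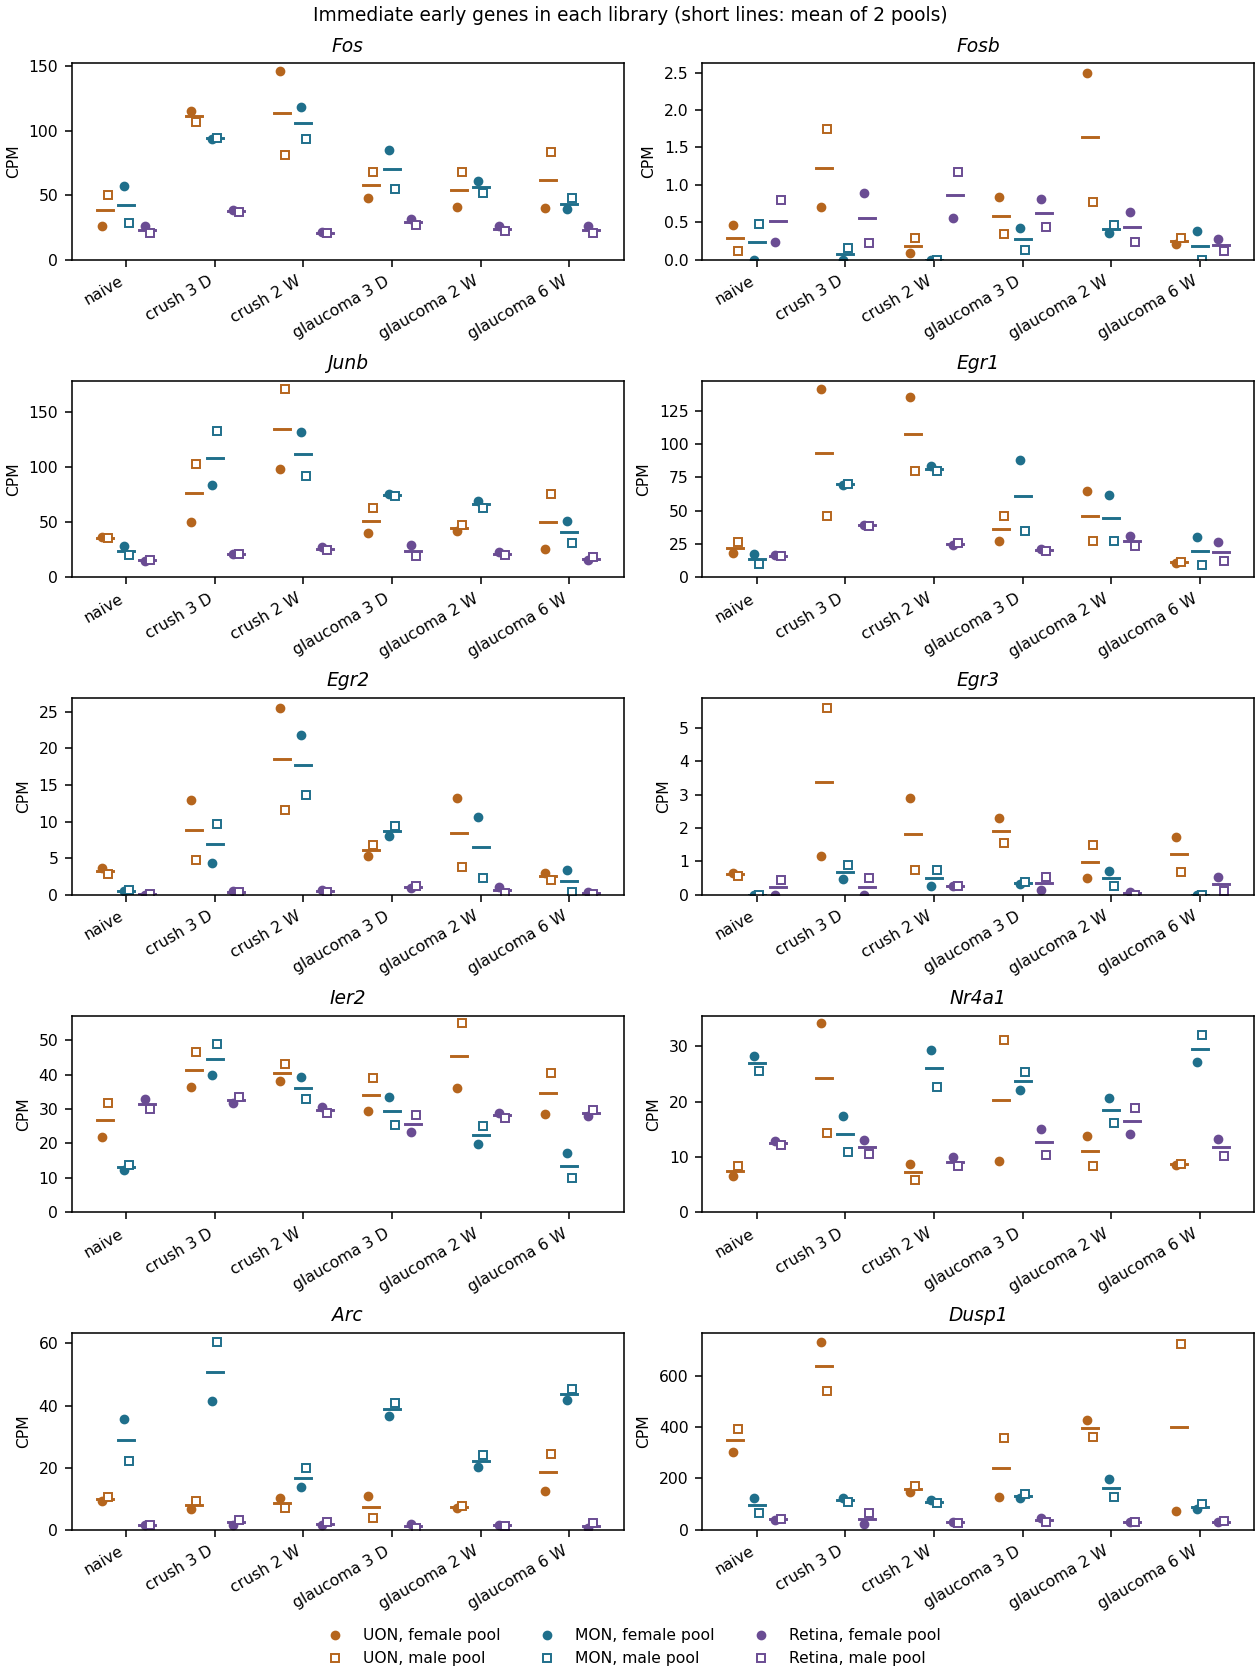
CPM of each member in the 36 libraries, by condition (horizontal axis), with each vertical axis starting at 0. Colours are tissues, filled circles female pools, open squares male pools and short lines the mean of the 2 pools. MON values of Egr1, Egr2, Junb and Ier2 stand above naïve at both crush times, and the 2 retina pools 3 D after crush lie close for Egr1, at 39.4 and 38.4 CPM, and apart for Dusp1, at 21.9 and 63.5 CPM.

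In UON, Egr1, Junb, Fos, Egr2, Ier2 and Egr3 had values above naïve in every crush pool, and none was called by edgeR. Ier2 was 26.8 CPM ± 6.89 in naïve UON, 41.4 ± 7.16 at 3 D and 40.6 ± 3.49 at 2 W (mean ± SD, n = 2). Egr3 had few counts, 24 to 29 in naïve UON, 52 to 148 at 3 D and 38 to 135 at 2 W. Egr1 was 18.3 and 26.4 CPM in the female and male pools of naïve UON. It was 141 and 46.1 CPM at 3 D and 135 and 79.7 CPM at 2 W, above naïve in every pool. Junb was 36.3 and 35.5 CPM in naïve, 50.3 and 103 CPM at 3 D and 98.1 and 171 CPM at 2 W, higher in the male pool where Egr1 was higher in the female pool. Fos was 26.2 and 50.5 CPM in naïve, 115 and 107 CPM at 3 D and 146 and 81.3 CPM at 2 W. Egr2 was 3.7 and 2.87 CPM in naïve, 13 and 4.81 CPM at 3 D and 25.6 and 11.6 CPM at 2 W.

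At 3 D the log2 fold changes were 1.86 ± 0.53 for Egr1, 1.55 ± 0.45 for Fos, 1.28 ± 0.5 for Egr2 and 1 ± 0.36 for Junb. At 2 W they were 2.12 ± 0.52, 1.55 ± 0.46, 2.37 ± 0.51 and 1.8 ± 0.37 in the same order. With edgeR 0 of 20 member tests were called, in a tissue where 0.014% of all gene tests were. At an unadjusted p under 0.05, 11 of the 20 passed (6.17% of gene tests), and DESeq2 called 5 (1.81%): Egr1 at both times, and Fos, Egr2 and Junb at 2 W. Both pools lay above both naïve pools in 15 of 20 member tests, against 18.9% of gene tests. The smallest adjusted p by edgeR was 0.366, for Junb at 2 W.

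Dusp1 and Nr4a1 had higher values at 3 D than at 2 W in UON. Dusp1 was 304 and 393 CPM in naïve UON, 730 and 542 CPM at 3 D and 148 and 169 CPM at 2 W, so that the 3 groups did not overlap. The log2 difference of 2 W from 3 D was -2.03 ± 0.35 (adjusted p = 0.305 by edgeR, 5.85e-05 by DESeq2). Nr4a1 was 6.56 and 8.33 CPM in naïve UON, 34.1 and 14.3 CPM at 3 D and 8.75 and 5.86 CPM at 2 W, a log2 fold change of 1.58 ± 0.52 at 3 D (adjusted p = 1, edgeR). Its log2 difference of 2 W from 3 D, -1.7 ± 0.52, passed with neither tool (adjusted p = 0.797 by edgeR, 0.0947 by DESeq2). At 3 D, UON and MON thus had values of Nr4a1 on opposite sides of naïve. The difference of the responses was 2.52 ± 0.57 on the log2 scale (adjusted p = 0.288 by edgeR, 0.00453 by DESeq2). Red blood cell markers (5 genes) summed to 3790 to 4860 CPM in UON at 2 W after crush and 238 to 556 CPM in naïve UON, and the oligodendrocyte sum was 3330 CPM in 1 of the 2 W pools. The part of these shifts in the members' values was not tested.

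In retina no member was called by edgeR after crush. Egr1 was 16.4 and 15.7 CPM in naïve retina, 39.4 and 38.4 CPM at 3 D and 24.3 and 25.5 CPM at 2 W. Every crush pool was above both naïve pools, and 3 D above 2 W. The log2 fold change was 1.3 ± 0.15 at 3 D (adjusted p = 0.0953 by edgeR, 1.73e-07 by DESeq2) and 0.6 ± 0.15 at 2 W. Fos was 26.1 and 20.4 CPM in naïve retina, 38.6 and 37.3 CPM at 3 D and 21.3 and 20.9 CPM at 2 W, back within the naïve range. Ier2 kept to 29 to 33.5 CPM in all 6 libraries. With edgeR 0 of 20 member tests were called in retina after crush (0.168% of gene tests), 5 at an unadjusted p under 0.05 (7.66%), and DESeq2 called 1, Egr1 at 3 D (1.09%). Both pools were above both naïve pools in 9 of 20 (20.6% of gene tests). The 8 retinal ganglion cell markers summed to 396 to 462 CPM in naïve retina, 222 to 252 CPM at 3 D and 95.8 to 96.9 CPM at 2 W. At 2 W 5 of 8 were called lower by edgeR, and at 3 D 0 were, with 6 lower at an unadjusted p under 0.05. The part of this shift in the members' values was not tested.

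Whether tissues responded differently was tested directly, as the difference of 2 responses in 1 fit. Of 150 member tests, 2 were called by edgeR (0.104% of gene tests) and 8 by DESeq2 (1.62%). The Ier2 response to crush at 3 D was larger in MON than in retina by 1.75 ± 0.3 on the log2 scale (adjusted p = 0.0376, edgeR). With the pool of mice as replicate block the value was 1.74 and the adjusted p 0.0608 (edgeR), so that call was lost. The Egr1 response at 2 W was larger in MON than in retina by 1.96 ± 0.32 (adjusted p = 0.0364, edgeR), and with the block by 2 (adjusted p = 0.0471). The Ier2 call held in 3 of 12 fits without 1 library (adjusted p from 0.0185 to 0.144) and the Egr1 call in 6 of 12 (0.0139 to 0.139). With all 36 libraries in one fit both were lost, at 1.72 (adjusted p = 0.0506) for Ier2 and 2 (adjusted p = 0.345) for Egr1 (edgeR). For Egr1 the losses were without either pool of naïve retina, of retina at 2 W or of MON at 2 W, at log2 values of 1.85 to 2.09. For Ier2 they were without any of the retina pools, either naïve MON pool or the male MON pool at 3 D, at log2 values of 1.55 to 1.89. For Junb the corresponding differences were 1.76 ± 0.39 at 3 D and 1.48 ± 0.39 at 2 W, with adjusted p-values of 0.0684 and 0.134 (edgeR). Both called differences were between MON and retina.

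**Figure D3:**
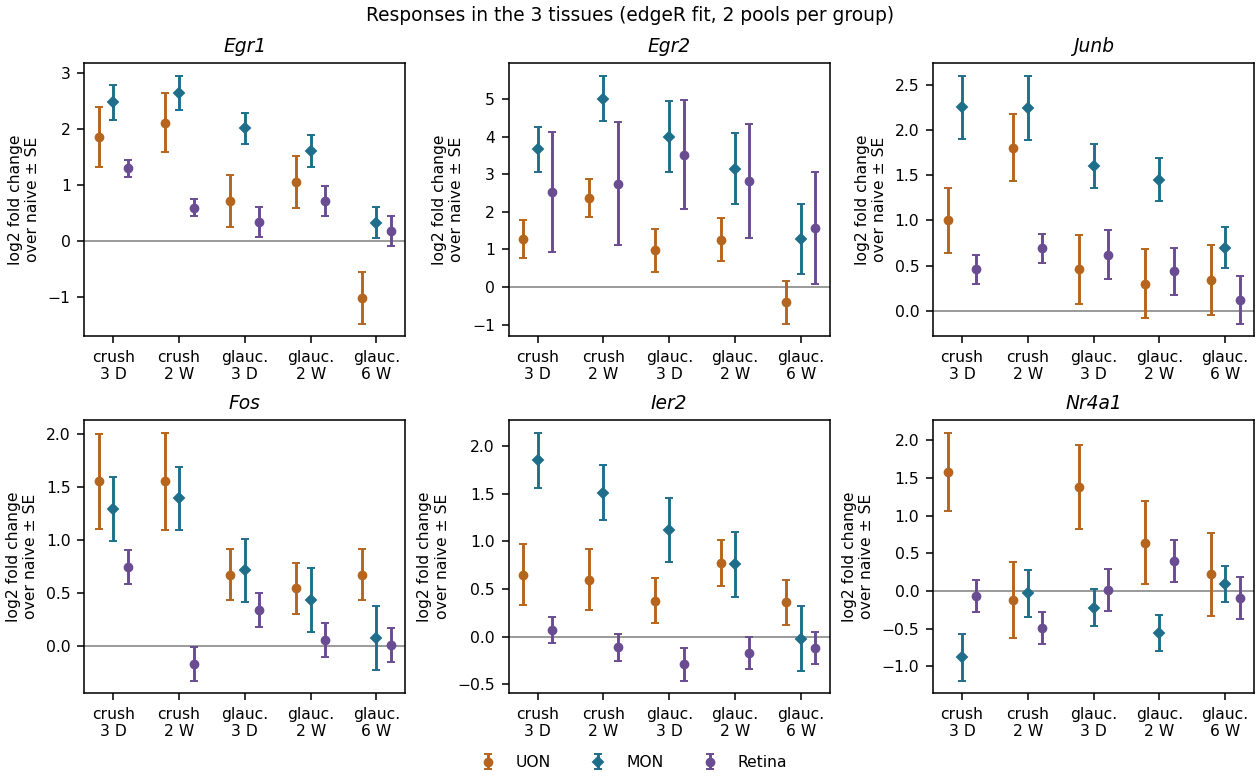
Log2 fold change over naïve of the same tissue for 6 members, with SE bars from the edgeR fit, at each model and time (horizontal axis). MON (diamonds) has the highest point for Egr1, Junb and Ier2 at both crush times, and Nr4a1 lies above 0 in UON and below 0 in MON at 3 D after crush.

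In glaucoma no member was called against naïve. With edgeR 0 of 90 member tests passed, where 0.00146% of gene tests did. At an unadjusted p under 0.05 there were 17 (5.49% of gene tests), and DESeq2 called 6 of 86 (0.812%), all in MON: Egr1, Egr2 and Junb at 3 D and at 2 W. In MON at 3 D, Egr1 was 87.7 and 34.4 CPM, Egr2 8.04 and 9.35 CPM and Junb 75.8 and 73.6 CPM in the female and male pools, all above naïve. The log2 fold changes were 2.02 ± 0.28, 4 ± 0.95 and 1.6 ± 0.24, with adjusted p-values of 0.27, 0.385 and 0.297 (edgeR).

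At 2 W, Egr1 was 61.6 and 27.1 CPM in MON, Egr2 10.6 and 2.35 CPM and Junb 69.5 and 63.1 CPM, again above naïve. At 6 W, Egr1 was 30.5 and 9.39 CPM, Egr2 3.41 and 0.426 CPM and Junb 51.5 and 31.3 CPM. By then the Egr1 and Egr2 values overlapped with naïve, and Junb did not. That overlap rests on the female pool at 6 W, which held surface epithelium markers. In the male pool alone, Egr1 and Egr2 lay below both naïve pools. Leaving out the 2 MON libraries with surface epithelium markers, an alternative chosen after seeing the data, leaves a lone pool at 2 W and at 6 W. The spread of that fit rests on the naïve and 3 D pools alone, so only effect sizes are given. At 3 D the log2 fold changes were 3.91 for Egr2, 2.06 for Egr1 and 1.62 for Junb. At 2 W, with the female pool alone, Egr2 was at 4.29. Neither excluded library belongs to the 3 D group, and they enter its values only through the shared fit.

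Both pools lay above both naïve pools in 14 of 30 member tests in MON glaucoma (19.5% of gene tests), 13 of 30 in UON (16.2%) and 8 of 30 in retina (20.1%). The retina count, 26.7% of its member tests, was near the share of all genes. By time the count in MON was 6 of 10 at 3 D, 6 at 2 W and 2 at 6 W, and in retina 4, 4 and 0. The shares over all genes are for the 3 times together. The counts by time thus have no share beside them, and whether a trend is particular to the members cannot be told. In UON the Egr1 values were 27.2 and 45.7 CPM at 3 D, 64.6 and 27.5 CPM at 2 W and 11.1 and 11.2 CPM at 6 W, the last below both naïve pools. Dusp1 in UON at 6 W was 73.9 CPM in the female and 723 CPM in the male pool, the widest gap of any group for that gene. Of the 36 other immediate early genes, 0 were called by edgeR in any of the 9 glaucoma comparisons, with at most 8 higher at an unadjusted p under 0.05, in MON at 3 D. Over the 9 comparisons together 5.49% of gene tests passed that cut in either direction, and the share in MON at 3 D alone is not given. Heat shock genes summed to 3460 to 3740 CPM in MON at 3 D of glaucoma and 2310 to 2780 CPM in naïve MON, with 4 of 10 higher at an unadjusted p under 0.05 and 0 called by edgeR. Their part in the members' values was not tested.

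**Figure D4:**
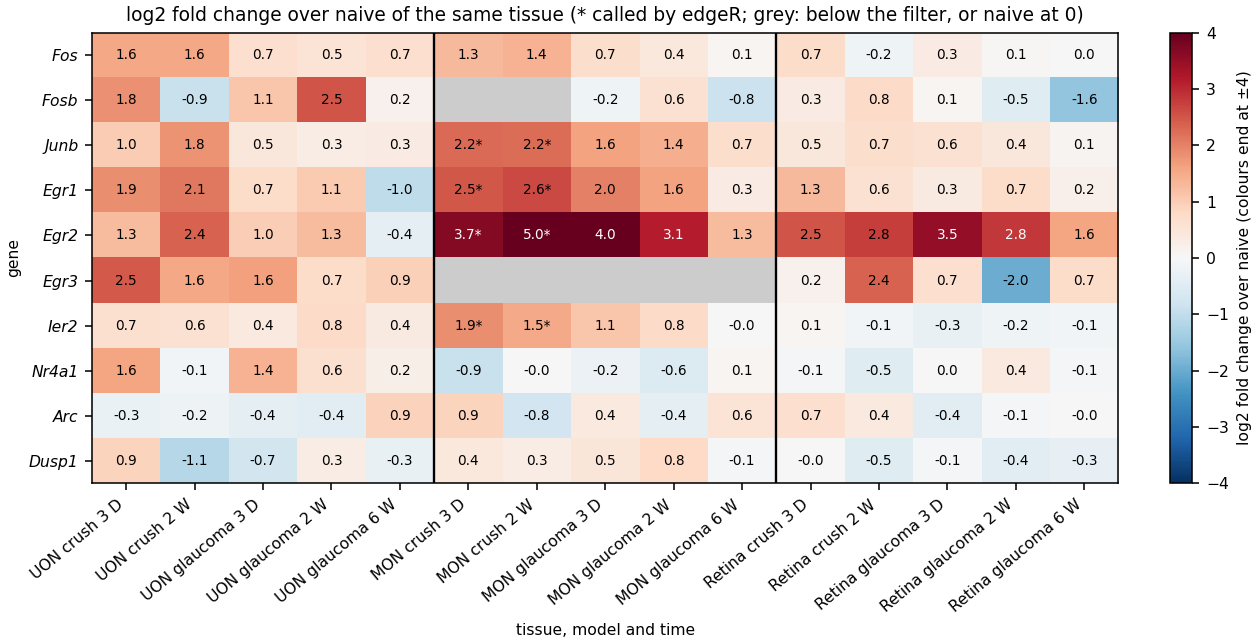
Log2 fold change over naïve of the same tissue for the 10 members (rows) in 15 comparisons (columns), from edgeR. Stars mark called members, and grey cells are Fosb below the filter and Egr3 in MON, where both naïve pools are at 0. The 8 stars are Egr1, Egr2, Junb and Ier2 in MON after crush.

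Crush and glaucoma were compared at the same time in the same tissue, without naïve in the contrast. In UON at 3 D, Dusp1 was at a log2 value of 1.62 ± 0.73 and Egr1 at 1.22 ± 0.54 for crush over glaucoma. In MON at 3 D, Junb was at 0.6 ± 0.3 and Egr1 at 0.43 ± 0.4, and Nr4a1 at -0.73 ± 0.27 was the only member with an unadjusted p under 0.05. In retina at 3 D, Egr1 was at 0.94 ± 0.26, Fos at 0.4 ± 0.16 and Ier2 at 0.36 ± 0.15, and at 2 W Nr4a1 was at -0.88 ± 0.26. At 2 W in UON, Junb was at 1.52 ± 0.37 and Egr1 at 1.25 ± 0.53. In MON at 2 W, Egr1 was at 1.06 ± 0.4 and Fos at 0.93 ± 0.28. With edgeR 0 of 60 member tests were called (0.0382% of gene tests), 15 at an unadjusted p under 0.05 (6.95%), and DESeq2 called 1 of 54 (1.21%), Junb in UON at 2 W (adjusted p = 0.0206).

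Between times of 1 model, 0 of 89 member tests were called by edgeR (0.0154% of gene tests), 15 at an unadjusted p under 0.05 (6.76%) and 3 of 83 by DESeq2 (1.37%). The DESeq2 calls were lower Dusp1 in UON and lower Arc in MON at 2 W than at 3 D after crush, and lower Egr1 in MON at 6 W than at 3 D of glaucoma. That Egr1 difference was -1.69 ± 0.28 on the log2 scale (adjusted p = 0.504 by edgeR, 6.12e-05 by DESeq2).

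The spread between the 2 pools of a group varied by tissue and gene. Over the 6 groups of a tissue, the median gap of Egr1 between pools was 0.76 on the log2 scale in UON, 1.01 in MON and 0.09 in retina, where the medians over 30097 genes were 0.54, 0.46 and 0.36. For Ier2 it was 0.44, 0.32 and 0.09. Other members had their widest gap in retina instead, with 0.49, 0.39 and 0.69 for Arc, 0.84, 0.92 and 0.99 for Egr2 and 1.37, 0.52 and 1.7 for Egr3 in the same order. In retina these genes had low counts, at most 150 for Arc, 64 for Egr2 and 29 for Egr3 in any pool. With about 4 counts per read pair, their gaps there rest on few read pairs. Some gaps kept 1 direction: Egr1 was higher in the female pool in 5 of 6 MON groups and Ier2 higher in the male pool in 6 of 6 UON groups. Since a pool is also a sex and a set of mice, these cannot be told apart.

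Members that moved together were described by Pearson's r of log2 CPM over the 36 libraries after each tissue's mean was taken off. The points share mice across tissues and naïve controls, and the coefficients are a description. Egr1 and Egr2 were the closest pair (r = 0.8), followed by Junb and Ier2 (0.73), Fos and Junb (0.72) and Fos and Egr1 (0.71). These pairs differed by tissue (n = 12 libraries each). Egr1 and Egr2 were at 0.93 in UON, 0.92 in MON and 0.5 in retina. In the same order Junb and Ier2 were at 0.6, 0.92 and -0.39, Fos and Junb at 0.71, 0.85 and 0.16, and Fos and Egr1 at 0.62, 0.85 and 0.68. Over all 45 pairs and 36 libraries the median was 0.13, with the lowest pair at -0.36, so the 10 genes did not move as 1 block. Within MON 16 of the 45 pairs were over 0.5, within UON 6 and within retina 2. The 5 genes closest to the mean of the standardized members, of 14223 ranked, were Plk2 (0.81), Ccn1 (0.79), Plaur (0.79), Ehd4 (0.79) and Fblim1 (0.76). Of the 50 closest, 5 were on the list of other immediate early genes, of which 33 were ranked.

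Transcript counts, summed over the 12 libraries of a tissue, showed which forms were counted. Fos-201 held 95.7% of Fos counts in UON, 97.3% in MON and 92.8% in retina. Dusp1-202 held 92.3%, 90% and 91.6% of Dusp1 counts in the same order. Arc-202 held 38.1% of Arc counts in MON, 28.8% in UON and 14.5% in retina, where Arc had 863 counts in all. Egr3 counts were put on Egr3-202, annotated as a retained intron, for 100% of 696 counts in UON, 80.1% of 146 in MON and 100% of 136 in retina. Values of Egr3 here are thus mostly not those of its annotated coding transcripts.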

How the data were processed

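RNA of UON, MON and retina was pooled by sex and sequenced in 36 libraries from an ultra-low input kit. The authors aligned the reads to GRCm38 with HISAT2 2.2.1 and assembled them with StringTie 1.3.0. The deposited estimated counts per gene and transcript come from StringTie's count script without normalization, and are whole numbers in which a read pair adds about 4 counts. The deposited FPKM and TPM per gene are the authors' StringTie values. FPKM was used for levels and TPM was not used. Strand settings are not given in the sources used here, so reads of a gene and an overlapping gene cannot be told apart.

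Counts were tested with edgeR 4.0.16 in R 4.3.3 (TMM, filterByExpr with minimum count 10 and total 15, quasi-likelihood F test, Benjamini-Hochberg over all genes tested). The call rule required a log2 fold change over 1 in size together with an adjusted p below 0.05. Fits held group and sex, per tissue and model, and DESeq2 1.42.0 was an alternative. SE is the log2 fold change divided by the square root of F. CPM values use TMM factors over all 36 libraries. On counts simulated for MON 3 D after crush, edgeR recovered 82 of 100 genes changed by log2 3 and 28 of 100 changed by 1.5, with 14 false calls. DESeq2 recovered 91 and 41, with 56 false calls. The changed genes were drawn only from those above a floor of expected counts. The simulated counts had no sex effect and no steps of about 4. These shares thus do not extend to members with few counts, such as Egr3 and Fosb.

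Libraries of the same sex come from the same mice in all 3 tissues, by the study's methods, which pairs them. Their female minus male gaps correlated at -0.04 to 0.09 between tissues. Replicates are pools of separate mice. All members are named. From each other list, at most 3 called genes per direction and comparison with the largest change were named. The members and lists were chosen with earlier results of these data known. Promoters are from RefSeq and transcript types from GENCODE M21, while the authors used M25. Of the marker lists, only those whose values stand beside a result are reported.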

Additional observations from a re-analysis of the deposited data

Results flagged for a closer look

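In the tests of a response between tissues, 2 results passed the threshold and are listed here for that. The Ier2 response to crush at 3 D differed between MON and retina by 1.75 on the log2 scale (adjusted p = 0.0376, edgeR). It was lost with the shared mice as replicate block (1.74, adjusted p = 0.0608, edgeR) and held in 3 of 12 fits without 1 library. The Egr1 response at 2 W differed between the same tissues by 1.96 (adjusted p = 0.0364, edgeR). It held with the block (adjusted p = 0.0471, edgeR) and in 6 of 12 fits without 1 library. In each, both MON crush pools lay above both naïve MON pools. In retina, both Egr1 pools at 2 W also lay above naïve, and the Ier2 pools at 3 D overlapped with the naïve values. Groups of 2 libraries are too small for a test of single libraries standing apart.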

How the results depend on the processing

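Between naïve tissues 11 member tests were called, and 6 to 12 without 1 library, fewest without the female retina pool. After crush 8 were called, 17 with DESeq2, and 0 to 10 without 1 library, with 0 without either naïve MON pool. In glaucoma 0 were called by edgeR (17 at an unadjusted p under 0.05), 6 with DESeq2 and 4 with no filter on low counts. Between crush and glaucoma 0 were called by edgeR (15 at an unadjusted p under 0.05), 1 with DESeq2, 1 with all 36 libraries in one fit, and 0 to 0 without 1 library. Between times 0 were called by edgeR (15 at an unadjusted p under 0.05), 3 with DESeq2 and 2 with no filter. Of responses between tissues 2 were called, 8 with DESeq2, 7 with no filter, 4 with counts divided by 4, 1 with the replicate block (pool of mice), 0 with all 36 libraries in one fit, and 0 to 4 without 1 library, with 0 without any of the naïve or 2 W crush retina pools. The cause of these differences was not tested. Of the 21 member calls, each kept its call under DESeq2, no filter and counts divided by 4, and 15 kept it with all 36 libraries in one fit. DESeq2 size factors in edgeR lost 1, Ier2 in MON at 2 W (1.47, adjusted p = 0.0503). Over the fits without 1 library, calls were kept 95 times and lost 43 times. No direction reversed. The replicate block of same mice ended the Ier2 call in the MON and retina responses at 3 D (1.74) and changed no other call, and without the sex term, which in naïve mice marks the pool, 19 of 19 calls were kept. Fosb and Egr3 held under 10 counts in 12 libraries each, which limits both genes.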
